A study of Mus musculus with 6 samples.

Results

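Radial glia are the stem cells of the embryonic cortex. Their cell bodies line the ventricle, their long fibres reach the pial surface, and they generate neurons directly or through intermediate progenitors. They are recognised by intermediate filaments of the fibre (nestin and vimentin), by a fatty acid binding protein and a glutamate transporter that they share with astrocytes, by the stem cell transcription factor Sox2, and by a group of receptors and matrix proteins at their surface. This set of structural and surface markers was given as 10 gene names. Of these, 9 had a row in the table of 17348 genes: Nes, Vim, Fabp7, Slc1a3, Sox2, Prom1, Ptprz1, Ednrb and Tnc. The remaining name, Glast, is an older name of Slc1a3 and adds no further gene. All 9 passed the filter on low counts, which kept 13340 genes, and every one of them was counted in all 6 libraries.

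To ask whether radial glia transcripts change when Ybx1 is lost, cortex of E13.5 mouse embryos labelled WT was compared with cortex of embryos labelled cKO, with 3 libraries per genotype. In the cKO embryos (Nestin-Cre, Ybx1 fl/fl), a transgene driven by the nestin regulatory sequence deletes floxed exons of Ybx1, an RNA-binding protein that reads 5-methylcytosine, in neural progenitors and their progeny. The study describes the controls as wild-type littermates, and names Ybx1 fl/fl embryos without Cre as its control genotype. The Cre transgene and the loss of Ybx1 therefore cannot be told apart. The replicates are described as independent experiments. How many embryos each library holds is not given.

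The libraries held 15907486 to 16282921 estimated counts. The dorsal cortex marker Emx1 was present in all of them, at 78.8 to 99.4 CPM (counts scaled to a common library size, so that libraries can be compared). The 8 hindbrain and spinal cord genes summed to at most 0.0628 CPM in 5 libraries and to 8.39 in cKO replicate 3. For Ybx1 itself, the WT values were 1021, 528 and 1220 CPM for replicates 1, 2 and 3, and those of cKO were 83.1, 117 and 147. The library labelled WT replicate 2 thus took an intermediate place. In cKO replicate 3, 14 epidermis genes summed to 345 CPM against 5.75 to 7.75 elsewhere, and 15 genes of mesenchyme and meninges summed to 1101 CPM against 265 to 362. Both libraries stand apart, and values without them are given where they matter.

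The 9 genes lie on 8 chromosomes (RefSeq, GRCm38.p6, the build named in the submitters' notes being GRCm38). On the plus strand, Nes spans chr3:87971093-87980451, Sox2 chr3:34649995-34652461, Vim chr2:13574311-13582826, Fabp7 chr10:57784923-57788450 and Ptprz1 chr6:22875315-23052916. On the minus strand, Slc1a3 spans chr15:8634124-8710807, Prom1 chr5:43993621-44102047, Ednrb chr14:103814615-103844508 and Tnc chr4:63959785-64047015. In GENCODE M21, Sox2 lies inside the noncoding gene Sox2ot on the same strand, and Prom1 and Tnc each overlap a transcript on the opposite strand. Slc1a3 and Prom1 also overlap a same-strand entry. The counting is not stated to use strand, so the levels of these 4 genes are uncertain to that extent.

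Because several of these genes moved together across libraries, their promoters were searched for 4 short motifs in the 300 bases around the annotated start: ACAAAG or ACAATG, bound by SOX factors, TGGGAA, bound by the Notch effector RBPJ, the POU octamer ATGCAAAT, all on both strands, and the TATA box TATAAA in the direction of transcription only. No motif contains another. Windows of 30 bases are shown for 4 of the genes, read from RefSeq in the direction of transcription with the motif in capitals.

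Vim, TATA box 32 bases upstream of the start: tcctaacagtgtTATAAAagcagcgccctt
Sox2, SOX motif 206 bases upstream: ggggggggggatACAAAGgttccccagcgg
Fabp7, RBPJ motif on the opposite strand, 249 bases upstream: gTTCCCAggccccgctgacttcctttagag
Tnc, octamer 116 bases upstream: actataaattgtATGCAAATggtccgttag

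The windows lie at chr2:13574267-13574296, chr3:34649777-34649806, chr10:57784673-57784702 (plus strand) and chr4:64047114-64047143 (minus strand, GRCm38.p6). The RBPJ motif was found in 3 of the 9 promoters (Fabp7, Prom1 and Tnc) and in 25.5% of all 27025 promoters. The SOX motif was found in 1 of 9 (Sox2) against 28.8%, and the octamer in 1 of 9 (Tnc) against 1.75%. The letters TATAAA were found in 2 of 9 (Vim and Tnc) against 8.88%. In Tnc they lay 126 bases upstream of the start, and they stand in lower case in the octamer window above. No motif was found in more than 3 of the 9, and a match describes letters only.

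In length-scaled levels (deposited TPM), the widest steps in WT lay between Fabp7 and Nes (5.18-fold) and between Ednrb and Tnc (6.33-fold). Vim at 1170 ± 125 TPM and Fabp7 at 1088 ± 313 (SD, n = 3 WT libraries) were the most abundant, each above 99.3% of all genes in the table. Their WT libraries overlapped, and Fabp7 exceeded Vim in WT replicates 2 and 3 while Vim exceeded Fabp7 in WT replicate 1. Nes at 210 ± 35.5, Sox2 at 156 ± 9.42 and Ptprz1 at 100.2 ± 11.4 TPM followed, and each lay apart from its neighbours in every WT library. Prom1 at 66.8 ± 2.03 and Slc1a3 at 60.7 ± 11.2 TPM overlapped. Ednrb stood at 37.6 ± 9.92 and Tnc at 5.94 ± 2.36 TPM, so Tnc was 6.33-fold below Ednrb and at the 39.9th percentile of all genes. The cKO order differed only in that Slc1a3, at 67.8 ± 8.90 TPM, passed Prom1, at 65.0 ± 5.69 (SD, n = 3 each), and the libraries of those genes overlapped there too.

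**Figure D1:**
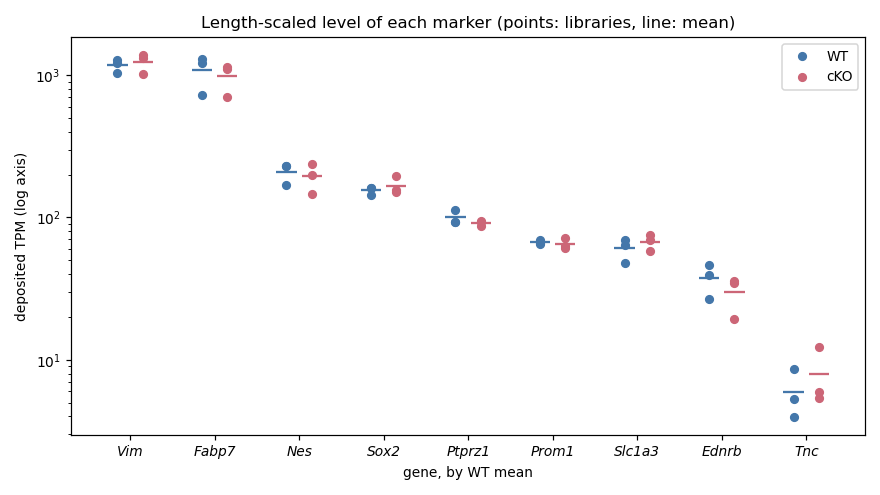
Deposited TPM on a log axis for each of the 9 genes, ordered by the WT mean, with 1 point per library (blue WT, red cKO) and a line at each genotype mean. Vim and Fabp7 lie highest, Tnc reaches at most 12.4 TPM in any library, and the genotypes overlap for each gene.

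In the comparison of genotypes, none of the 9 markers passed. Of 13340 genes tested with edgeR's quasi-likelihood test, 0% were called at an adjusted p-value under 0.05, and 0 of the 9 markers were. Ybx1 itself, at 12.5% of its WT mean in cKO, was not called in this test either, with an adjusted p-value of 0.128. A gene that is not called can thus still differ between the genotypes. At an unadjusted p-value under 0.05, 3.57% of all genes and 0 of the 9 markers were found, and DESeq2, limma-voom and limma on TPM also gave 0 of the 9 by either count. Each marker had an adjusted p-value of 0.99995. The fold change was negative for 5 of them and positive for 4. The median log2 fold change was -0.04, against 0.0019 over all genes tested. The libraries of the genotypes overlapped for all 9 genes, whereas 9.04% of tested genes had genotypes that did not overlap, 4.21% with cKO above WT and 4.83% with cKO below. The summed level of the 9 genes was 2515 ± 429 CPM in WT and 2482 ± 465 in cKO (SD, n = 3 each). In bulk tissue, fewer radial glia and less RNA per cell cannot be told apart.

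The intermediate filament genes differed more between replicates than between genotypes. Nes encodes nestin, the filament protein of neural stem cells whose regulatory sequence also drives the Cre transgene used here. Taking replicates 1, 2 and 3 in order here and below, WT cortex gave 447, 667 and 652 CPM and cKO cortex 390, 687 and 554. Replicate 1 of each genotype was low, and both the lowest and the highest library were cKO. The log2 fold change was -0.12 (standard error 0.22, 95% interval -0.63 to 0.39). Vim encodes vimentin, the filament partner of nestin in the radial fibre, and gave 724, 931 and 954 CPM in WT and 727, 1012 and 1019 in cKO. Replicate 1 was the lowest library of each genotype, and the log2 fold change was 0.08 (standard error 0.16, interval -0.29 to 0.45). Vimentin is also a filament of mesenchyme, and the highest Vim value was in cKO replicate 3, the library with mesenchymal transcripts, whose part in the value was not tested. Without that library the log2 fold change was -0.0022.

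Synm, which encodes another filament partner of vimentin, stood at 4.52 to 6.09 CPM, with a log2 fold change of -0.00018 (standard error 0.17). Gfap, the filament gene of later astrocytes, had at most 0.124 CPM in any library, below the level that 3 counts would give (0.181 to 0.188 CPM), so it was not detectable at this depth.

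Fabp7, the brain lipid binding protein of radial glia, had the widest replicate spread in WT after Tnc, with a coefficient of variation of 31.8%. It gave 160, 293 and 305 CPM in WT and 157, 262 and 265 in cKO. Replicate 1 of WT and of cKO lay close together, at 53.5% and 59.6% of the mean of the other libraries of the same genotype. Over all libraries the genotypes overlapped. The log2 fold change was -0.15 (standard error 0.27, interval -0.78 to 0.49), so that neither a fall by 0.78 nor a rise by 0.49 on the log2 scale lies outside the interval. Its paralog Fabp5 stood at 188 to 237 CPM in WT and 202 to 213 in cKO, with a log2 fold change of 0.0021 (standard error 0.10).

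Slc1a3 encodes GLAST, the glutamate transporter of radial glia and astrocytes. It gave 85.5, 125 and 132 CPM in WT and 104, 146 and 130 in cKO. The lowest library was WT replicate 1 and the highest cKO replicate 2, and the genotypes overlapped. The log2 fold change was 0.15 (standard error 0.18, interval -0.26 to 0.56) and turned to -0.019 without WT replicate 1. Among its paralogs, the neuronal transporter gene Slc1a1 had the lowest p-value among the families and partners listed here. It gave 24.6, 20.3 and 21.0 CPM in WT and 21.2, 14.8 and 14.7 in cKO, a log2 fold change of -0.38 (standard error 0.16, edgeR adjusted p-value 0.99995). Slc1a2, which encodes the transporter GLT-1, stood at 47.1 to 53.5 CPM in WT and 44.0 to 48.6 in cKO (log2 fold change -0.13, standard error 0.08).

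Sox2 and Prom1 had the narrowest ranges over the 6 libraries. Sox2, a transcription factor that maintains the stem cell state, gave 158, 157 and 172 CPM in WT and 157, 210 and 158 in cKO. A single library, cKO replicate 2, was high, and the other 5 lay within 157 and 172 CPM. The log2 fold change of 0.11 (standard error 0.12, interval -0.17 to 0.38) became -0.048 without that library. Sox1 and Sox3, the close relatives of Sox2, were also highest in cKO replicate 2, at 137 and 106 CPM. Their log2 fold changes were 0.04 (standard error 0.12) and -0.02 (standard error 0.13), and -0.11 and -0.18 without that library. Prom1 encodes prominin-1 or CD133, a membrane protein of apical protrusions, and gave 102, 115 and 106 CPM in WT and 94.6, 118 and 101 in cKO. Its largest value was 1.25-fold its smallest, the narrowest range of the 9 genes, and its log2 fold change was -0.04 (standard error 0.10, interval -0.26 to 0.18). Its paralog Prom2 had 0 counts in 5 libraries, which allows up to 0.188 CPM, and reached 2.78 CPM in cKO replicate 3.

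**Figure D2:**
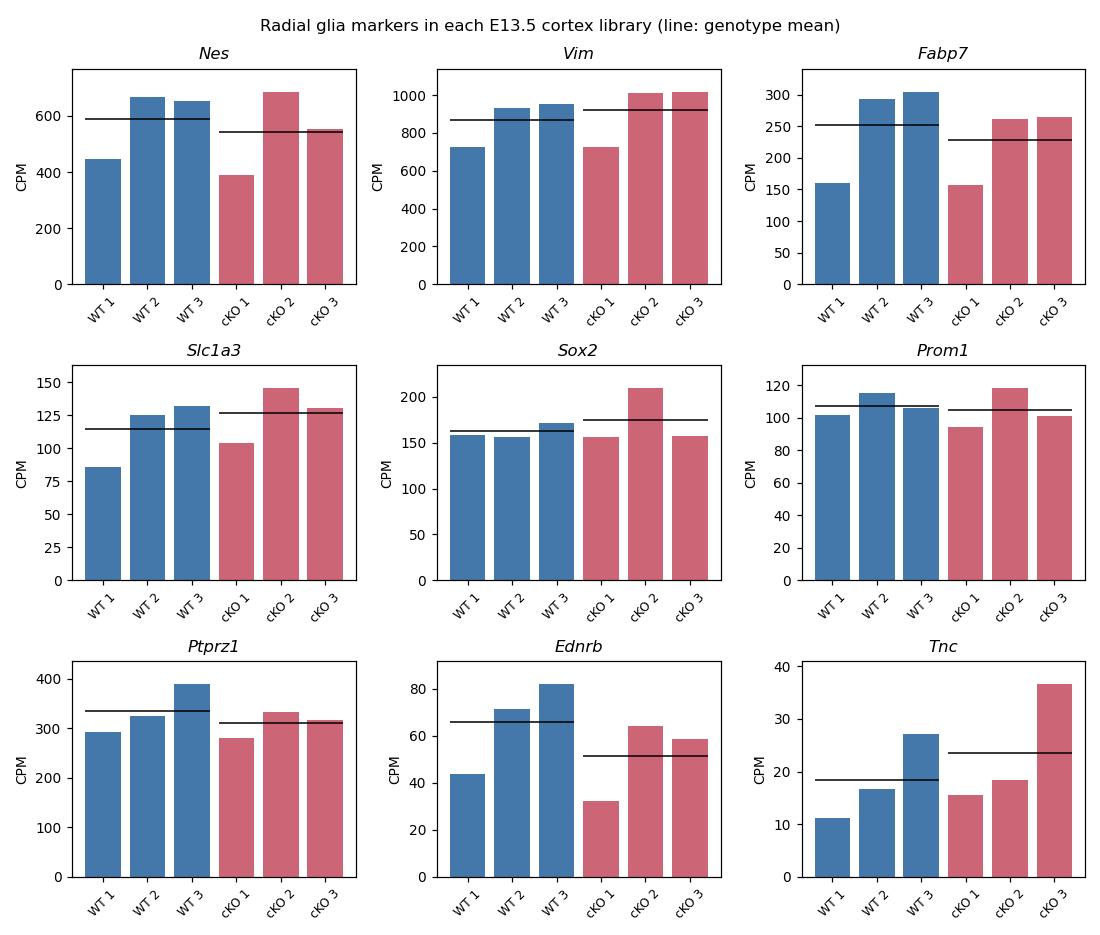
Normalised level (CPM) of each marker in each library, on axes from 0, with WT in blue, cKO in red and a black line at the genotype mean. Replicate 1 of both genotypes lies below the other 4 libraries for 7 of the 9 genes, Sox2 and Prom1 being the exceptions.

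The surface receptors followed. Ptprz1 encodes a receptor tyrosine phosphatase and chondroitin sulphate proteoglycan of radial glia, and gave 292, 325 and 389 CPM in WT and 281, 333 and 316 in cKO. WT replicate 3 was the highest library, and without it the log2 fold change of -0.11 (standard error 0.12, interval -0.39 to 0.16) became 0.0052. The genes of its ligands pleiotrophin and midkine had positive fold changes. Ptn gave 180 to 274 CPM in WT and 225 to 321 in cKO (log2 fold change 0.20, standard error 0.18), and Mdk gave 161 to 182 in WT and 168 to 209 in cKO (0.18, standard error 0.10). For both ligands the genotypes overlapped. With WT replicate 1 left out the fold change of Ptn was 0.036, with cKO replicate 2 left out it was 0.074, and that of Mdk was 0.11 without cKO replicate 2.

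Ednrb, the endothelin receptor of radial glia and neural crest, had the largest negative fold change of the 9 genes. It gave 43.7, 71.5 and 81.9 CPM in WT and 32.1, 64.2 and 58.4 in cKO. WT replicate 1 was under 2 of the cKO values, so the genotypes overlapped. The cKO mean was 78.5% of the WT mean (51.6 ± 17.1 against 65.7 ± 19.8 CPM, SD, n = 3 each). The log2 fold change was -0.35 (standard error 0.29, interval -1.02 to 0.32), and Ednrb was the only marker with the same sign in all 15 alternative fits. The size of the change rested on single libraries, from -0.57 without WT replicate 1 to -0.094 without cKO replicate 1. Of the 3 endothelin genes, Edn2 had 0.248 to 0.603 CPM. Edn1 and Edn3 had at most 0.377 CPM outside cKO replicate 3, where they reached 0.965 and 3.14 CPM. Ece1, whose product processes endothelin precursors, gave 24.2 to 29.3 CPM in WT and 27.6 to 36.7 in cKO (log2 fold change 0.26, standard error 0.13). Without cKO replicate 3, its highest library, that fold change was 0.14, and without both libraries that stand apart it was 0.086. The neural crest markers Sox10 and Foxd3 were at or below 0.125 CPM in 5 libraries and at 1.33 and 0.181 in cKO replicate 3, where Ednrb stood at 58.4 CPM. The part of neural crest cells in the Ednrb values was not tested.

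Tnc, the extracellular matrix glycoprotein tenascin-C, was the lowest and most variable marker and had the largest positive fold change. It gave 11.2, 16.6 and 27.2 CPM in WT and 15.6, 18.4 and 36.6 in cKO. The highest library was cKO replicate 3, WT replicate 3 came next, and the largest value was 3.28-fold the smallest. The log2 fold change was 0.36 (standard error 0.39, interval -0.53 to 1.26), and it turned to -0.11 without cKO replicate 3 and to -0.17 without both libraries that stand apart. Tenascin-C is also made by mesenchyme. In cKO replicate 3 0 of the 15 mesenchyme and meninges genes were at 0 counts, against 1 to 3 in the other libraries, and the collagen gene Col1a1 stood at 128 CPM, against 1.36 to 6.02. The part of these cells in the Tnc value was not tested.

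Among the families and partners, Itga8 and Ednra were also highest in that library. The integrin gene Itga8, whose product binds tenascin-C, gave 2.43 to 2.88 CPM in 5 libraries and 9.89 in cKO replicate 3. The endothelin receptor gene Ednra gave 2.79 to 4.08 CPM in 5 libraries and 12.5 in that library. Without it, the log2 fold change of Itga8 went from 0.89 to -0.10 and that of Ednra from 0.95 to -0.0028. Other matrix and adhesion genes of the list were mixed in this respect. The proteoglycan gene Vcan was highest in cKO replicate 3, at 544 CPM against 434 to 514 in the others, and the integrin gene Itgb1 stood at 236 against 185 to 204. Itga9 (7.30 CPM against 4.12 to 5.50) and Sdc4 (6.64 against 3.00 to 4.90) were also highest in that library. Ncan was lowest there, at 403 CPM against 430 to 566. Tnr (25.2 CPM), Bcan (19.5), Itgav (44.8) and Itgb3 (1.57) lay inside the range of the other libraries.

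**Figure D3:**
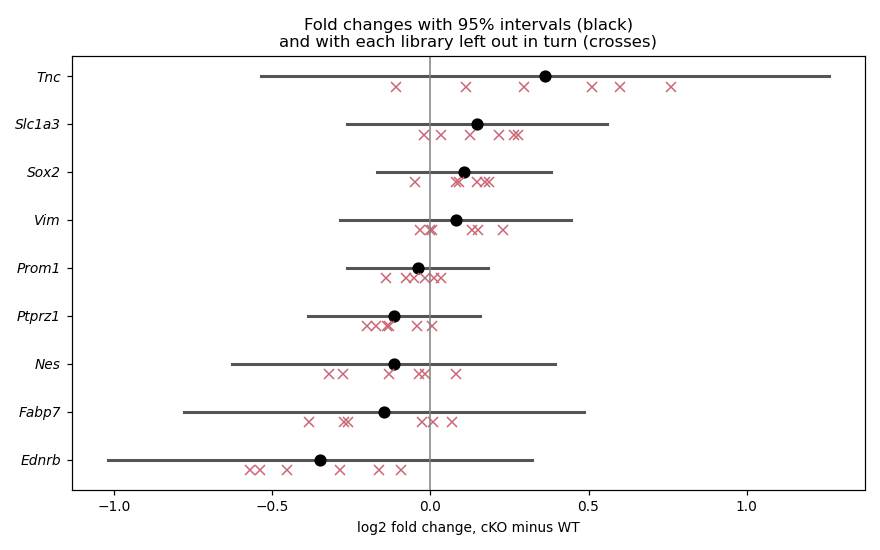
Log2 fold change (cKO minus WT) of each marker in the edgeR fit of all 6 libraries, as black points with 95% intervals, and the same value with each library left out in turn, as crosses. Every interval spans 0, and the crosses lie on both sides of 0 for each gene except Ednrb, whose values run from -0.57 to -0.094.

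Of 36 family members and partners of these genes, 30 passed the filter, and 0 were called at an adjusted p-value under 0.05 in the edgeR test. At an unadjusted p-value under 0.05, 0 were higher and 1 was lower (Slc1a1), where 1.75% and 1.81% of all tested genes were found. Of these 30, 12 had a positive and 18 a negative fold change, with a median log2 fold change of -0.0050. A list of 28 other radial glia genes was tested in full. None was called at an adjusted p-value under 0.05, 0 had an unadjusted p-value under 0.05, 16 had a positive and 12 a negative fold change, and the median was 0.03.

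The 5 of those genes with the lowest p-values were Itgb5, Aldoc, Nr2e1, Acsbg1 and Gas1, for all of which the edgeR adjusted p-value was 0.99995. Itgb5, an integrin gene, gave 3.87 to 5.46 CPM in 5 libraries and 22.9 in cKO replicate 3, and its log2 fold change of 1.22 (standard error 0.61) was 0.01 without that library. Nr2e1, which encodes the stem cell receptor Tlx, gave 140, 184 and 192 CPM in WT and 171, 241 and 192 in cKO (log2 fold change 0.23, standard error 0.15). Aldoc, an aldolase of glia, gave 168, 247 and 223 CPM in WT and 220, 263 and 263 in cKO (0.23, standard error 0.14). Pax6, the transcription factor by which the study stained radial glia, gave 160, 190 and 189 CPM in WT and 170, 226 and 175 in cKO (0.08, standard error 0.12). These values rested on single libraries. Without cKO replicate 2, Pax6 was at -0.061 and Nr2e1 at 0.080 on the log2 scale. Without WT replicate 1, Pax6 was at 0.0074, Nr2e1 at 0.11 and Aldoc at 0.086. By staining, the study counted fewer Pax6-positive cells in cKO cortex at E13.5. That is a count of cells by protein, a different measure from RNA in bulk tissue, and the Pax6 interval holds both falls and rises.

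Across libraries the markers tended to vary together. Averaged over the 9 genes, the log2 deviation from the mean of all libraries was -0.34, 0.10 and 0.25 for WT and -0.34, 0.18 and 0.15 for cKO. Replicate 1 was thus the low library of either genotype. The lowest library of all 9 markers was replicate 1 of WT or of cKO, as it was for 41.7% of all tested genes. For 7 of the 9 markers both of these libraries lay below the other 4, which held for 20.0% of all tested genes and for 14 of the 28 other radial glia genes. In WT replicate 1 the level relative to the mean of WT replicates 2 and 3 ranged from 51.1% for Tnc to 96.6% for Sox2. In cKO replicate 1, relative to cKO replicates 2 and 3, it ranged from 52.4% for Ednrb to 86.6% for Ptprz1. Of the 36 pairs of markers, 35 had a positive Pearson correlation of log2 CPM over the 6 libraries, with a median of 0.69. The highest was 0.95, between Nes and Ednrb, and the lowest -0.0099, between Prom1 and Tnc. These values share libraries and describe them only. The share of positive pairs among all tested genes was not computed, so the count is not a trait particular to the markers.

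**Figure D4:**
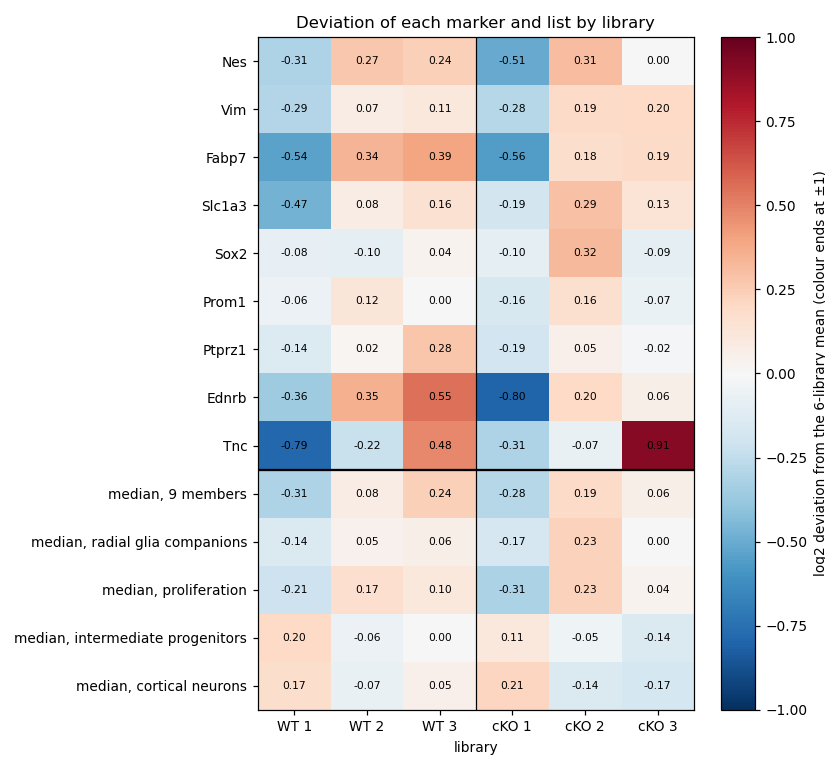
Log2 deviation of each marker from its mean over the 6 libraries, with the median deviation of 5 gene lists below the line, in red where higher and blue where lower. The columns of WT 1 and cKO 1 are blue for all 9 markers and for proliferation genes, and red for intermediate progenitor and neuron genes.

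Other gene lists separated the same libraries. The 20 proliferation genes (Mki67, Top2a and others) summed to 4201 CPM in WT replicate 1 and 3689 in cKO replicate 1, against 4963 to 5733 in the other 4 libraries. In the opposite direction, the 18 cortical neuron genes (Tubb3, Neurod6 and others) summed to 7296 and 7514 CPM in these 2 libraries, against 5909 to 6822 in the rest. The 12 intermediate progenitor genes (Eomes, Neurog2 and others) summed to 2341 and 2212 CPM, against 1793 to 2059. Not every gene of this list followed the sum. Neurog2 gave 391, 365 and 386 CPM in WT and 381, 411 and 344 in cKO. The ratio of the summed markers to the summed neuron genes was 0.277, 0.434 and 0.413 in WT and 0.261, 0.478 and 0.446 in cKO. Each genotype thus held 1 library with a low ratio, and over all libraries the genotypes overlapped. Between genotypes, 0 of the 20 proliferation, 18 neuron and 12 intermediate progenitor genes were called at an adjusted p-value under 0.05 or had an unadjusted p-value under 0.05 in the edgeR test, with medians of -0.01, -0.06 and -0.06. The part that these differences between libraries have in the marker values was not tested.

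**Figure D5:**
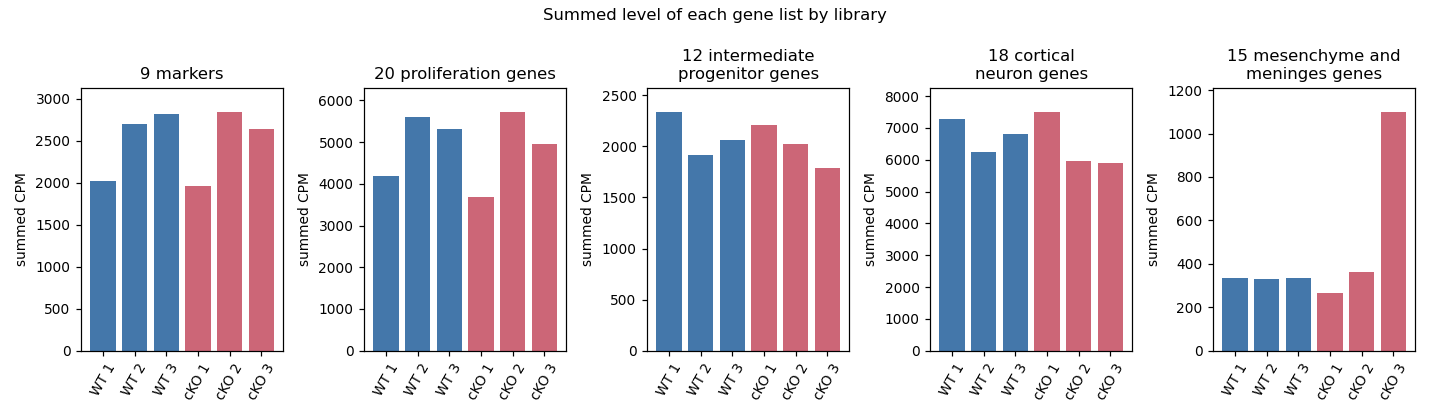
Summed normalised level (CPM) of the 9 markers and of 4 gene lists in each library, on axes from 0, WT in blue and cKO in red. Markers and proliferation genes are lowest in WT 1 and cKO 1, neuron and intermediate progenitor genes are highest there, and mesenchyme and meninges genes stand out in cKO 3 at 1101 CPM.

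The genes whose pattern over the 6 libraries was most like the mean profile of the markers were named by Pearson correlation among 6144 genes with enough level and spread. The closest was Nsun3 (0.994), which encodes a mitochondrial RNA methyltransferase and gave 15.2, 18.7 and 19.6 CPM in WT and 14.7, 18.9 and 18.7 in cKO. It was followed by Atp5j2 (0.992), Rps9 (0.990), Cdc45 (0.989), Nwd1 (0.986), Rps27l (0.986), Lin54 (0.986) and Zfhx4 (0.985). Cdc45, a factor of DNA replication, gave 35.4, 50.5 and 51.4 CPM in WT and 34.6, 50.7 and 50.1 in cKO. The most opposite genes were Ccl27a (-0.995), Chga (-0.991), Ttc19 (-0.986), Lmbr1l (-0.985), Zfp607b (-0.982), Ncoa3 (-0.979), Scmh1 (-0.979) and Efna3 (-0.979). Chga, which encodes the secretory granule protein chromogranin A, gave 54.9, 37.2 and 35.1 CPM in WT and 59.3, 35.4 and 37.5 in cKO. These correlations rest on 6 libraries and were picked from all 6144 genes, so they are a description.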

How the data were processed

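Cortical mRNA (Trizol, DNBSEQ) was sequenced in 3 WT and 3 cKO libraries. The submitters' processing notes name HISAT2 2.2.1, Bowtie2 2.4.5, RSEM 1.3.1 and GRCm38, without roles. The annotation and strand setting are not given in the sources used here. The authors deposited estimated counts, not normalised for depth (10.9% not whole), TPM values deposited by the authors and FPKM values deposited by the authors. Another 6 columns of group means were not used.

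Counts were rounded, filtered with filterByExpr (minimum count 10, minimum total 15) and scaled with TMM factors. CPM are TMM-normalised. The test was edgeR 4.0.16 (quasi-likelihood, R 4.3.3) on genotype alone with Benjamini-Hochberg adjustment over 13340 genes. The standard error is the fold change divided by the square root of F. The threshold was 0.05. A count of 0 allows up to 3 counts of the library, which covers counting error only, as do all such limits. With 3 against 3 libraries, an exact two-sided permutation test cannot go below 0.1 and was not used. No pair of libraries was a duplicate (at most 1.66% equal counts). The fit was tested on simulated data with 200 changed genes. At 1.5-fold it recovered 86 of them, with 11 false calls. At 2-fold it recovered 159, with 16 false calls. The simulated counts were drawn independently for each library, without the shifts that many genes share in the real libraries. These figures therefore do not give the recovery in the real comparison, in which Ybx1 itself was not called. Markers, lists and alternatives were chosen with earlier results of these data known. All markers are named. Of the companion and partner lists, the 5 genes with the lowest p-value and a mean of at least 1 CPM are named, and direct relatives or ligands of a marker beside it. Similar genes needed a mean of at least 10 CPM and a standard deviation of at least 0.1 (log2 CPM, prior count 2), and the first 8 in each direction are named. Sequences and coordinates are from RefSeq, in which all 9 genes matched. Alternatives changed the scaling (RLE, upper quartile), the filter (none, or 10 counts required in each library), or the tool (limma 3.58.1, as voom or on log2(TPM + 1), and DESeq2 1.42.0). Others added the replicate number as a block or left out single libraries, or both that stand apart. One item is not reported here.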

Additional observations from a re-analysis of the deposited data

How the results depend on the processing

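In all 15 alternatives, 0 of the markers, 0 of the other radial glia genes and 0 of the families and partners were called at an adjusted p-value under 0.05. Over all genes, DESeq2 called 2 higher and 2 lower, and leaving out both libraries that stand apart 1 higher and 1 lower. Leaving out single libraries gave from 0 to 1 in each direction. The median log2 fold change of the markers lay between -0.14 and 0.081. Between single libraries of a genotype, the mean log2 deviation of the markers had a standard deviation of 0.30, which is a different measure. Of 135 marker values, 13 changed sign, all when libraries were left out. With single libraries left out, the log2 fold changes ran from -0.32 to 0.081 for Nes, -0.031 to 0.23 for Vim, -0.38 to 0.070 for Fabp7, -0.019 to 0.28 for Slc1a3, -0.048 to 0.18 for Sox2, -0.20 to 0.0052 for Ptprz1 and -0.11 to 0.76 for Tnc. Without WT replicate 1, Vim was -0.031 and Slc1a3 -0.019, and without WT replicate 2, Prom1 was 0.011. Without WT replicate 3, Fabp7 was 0.0099 and Ptprz1 0.0052. Without cKO replicate 1, Nes was 0.081, Fabp7 0.070 and Prom1 0.034. Without cKO replicate 2, Sox2 was -0.048, and without cKO replicate 3, Vim was -0.0022 and Tnc -0.11. Without both libraries that stand apart, Prom1 was 0.037 and Tnc -0.17. The cause was not tested. The order of the markers was the same in FPKM as in TPM. At unadjusted p-values under 0.05 the edgeR test found 234 genes higher and 242 lower, 571 and 482 without cKO replicate 1 and 121 and 118 without WT replicate 3. The split was 247 higher and 168 lower with limma on log2(TPM + 1). No filter gave 390 higher, DESeq2 148 higher, leaving out cKO replicate 3 138 higher, and leaving out both libraries that stand apart 105 higher and 141 lower.

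Whether the replicate number pairs libraries is unknown, since the 3 batches of sequencing in the series description are not assigned, and deviations from the group means correlated at 0.41, 0.31 and -0.02 between libraries sharing numbers 1, 2 and 3. The replicate block called 1 gene in each direction after adjustment, and 476 higher and 614 lower without it. Of the markers, 2 then had an unadjusted p-value under 0.05, Ednrb and Tnc, with adjusted p-values of 0.48 and 0.50 in that edgeR fit.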

Other observations

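Of the 13 genes of ventral forebrain and its interneurons, 10 passed the filter and all 10 had a positive fold change, with a median log2 fold change of 0.67. At an unadjusted p-value under 0.05, 5 were higher in cKO in the edgeR test, where 1.75% of all tested genes were, and 0 passed at an adjusted p-value under 0.05, the lowest being 0.0953 for Sst. Their summed level was 124, 123 and 181 CPM in WT and 194, 227 and 202 in cKO. The progenitor genes of that region were low in all libraries, with Gsx2 at 0 to 2.70 CPM and Nkx2-1 at 0.0625 to 0.437. The 13 endothelial genes summed to 95.4 to 133 CPM in WT and 107 to 137 in cKO, and the 9 pericyte genes to 52.5 to 87.1 and 66.8 to 82.4. Nestin and vimentin are also made by vascular cells, and the part of these cells in the marker values was not tested.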
